A study of Danio rerio with 30 samples.

Results

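Apolipoproteins are the protein components of lipoprotein particles, which carry cholesterol and other lipids between cells. In the brain, apolipoprotein E is the main carrier, made by glial cells and taken up through receptors of the low-density lipoprotein receptor family, and it takes part in the clearance of lipid from damaged myelin and membranes. Zebrafish have a pair of apolipoprotein E genes, apoea and apoeb, and apoeb transcripts are widely used to label microglia in larval zebrafish. apoa1a and apoa1b encode apolipoprotein A-I, the main protein of high-density lipoprotein, and apoc1 encodes a small exchangeable apolipoprotein that in mammals inhibits lipoprotein uptake and remodelling.

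The 5 genes examined were apoea, apoeb, apoa1a, apoa1b and apoc1, each followed by the probe sets that carry its symbol alone in the array annotation. Of these 5 genes, 3 had such a probe set, among 19260 genes with one on the array. apoeb and apoa1a had 2 probe sets each, and apoea had 1. apoa1b was listed only on a probe set shared with gip and apoc1 only on one shared with rpl37, so neither is given a value here. Where a gene had 2 probe sets, the one with the higher mean was used and the other served as a check.

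RNA came from the telencephalon of wild-type zebrafish aged 3 to 5 months by the labels. Intact fish had no injury, and no sham operation is described for them. Nostril injury was a stab with a thin glass capillary entering through the nostrils, and skull injury was made from above with a small knife that pierced the bone and reached the midline part of the telencephalon. Both hemispheres were wounded in either model, and tissue was taken at 1, 2, 3 and 7 days post-injury (dpi). There were 4 replicates of intact telencephalon, 4 of skull injury at 3 dpi and 3 of each other group, 29 in all on 30 arrays, since intact replicate 1 was run as 2 technical arrays that were averaged. The labels do not say that replicates came from separate fish, so p-values measure the spread between these samples, which may in part be technical.

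Values are log2 intensities, on which a difference of 1 is a doubling, and they describe 1 probe set across samples, not 1 gene against another. Array medians lay between 4.22 and 4.35. The telencephalic transcription factor genes emx3 and tbr1b were measured at 7.79 to 8.44 and 9.33 to 10.06 over the 29 replicates. Of the others looked up, neurod6a was lower, at 5.98 to 6.48, and foxg1a had no probe set listed with its symbol alone. The replicates of skull injury at 3 dpi scattered more than those of any other group, with a mean residual variance of 0.173 against 0.0732 to 0.100. Genes were tested with limma across all probe sets, and p-values were adjusted by Benjamini-Hochberg over the 40670 probe sets with a linear mean (the antilog of the group mean) above 20 in any group. A gene is said to have risen or fallen where adjusted p was below 0.05. apoeb and apoa1a passed this filter, and apoea did not. Where a count of differences at an unadjusted p below 0.05 is pooled over several comparisons, it mixes both directions. No like share over all probe sets was pooled, so such a count carries no result.

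apoeb was strongly detected in every replicate and moved over a narrow range. It lay higher in nearly all injured samples of the first 3 days than in intact telencephalon, and lower again at 7 dpi, where the nostril-injured samples held the lowest group mean. In intact replicates 1 to 4 apoeb was measured at 10.93, 11.37, 11.33 and 11.55. The technical arrays of intact replicate 1 gave 10.83 and 11.02, so the lowest intact replicate differed from the others by more than its 2 arrays differed from each other.

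After nostril injury apoeb was measured at 11.50, 11.84 and 11.56 at 1 dpi. The 2 dpi values were 11.71, 11.32 and 11.84. At 3 dpi they were 11.83, 11.88 and 11.67, all above the highest intact value. At 7 dpi they were 10.81, 10.97 and 10.97, all below the lowest value of the earlier nostril samples and 1 of them below all intact samples.

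After skull injury apoeb was measured at 11.68, 11.65 and 11.75 at 1 dpi. The 2 dpi values were 11.72, 11.81 and 11.75. Both groups lay entirely above the intact range, with little spread. At 3 dpi the 4 values were 11.61, 11.63, 11.98 and 11.27, the last of them within the intact range. At 7 dpi they were 11.22, 11.41 and 11.10, again within the range of the intact samples. Over both injuries, 18 of 19 replicates at 1 to 3 dpi lay above the intact mean and 16 of 19 above the highest intact replicate. All 19 are set against the same 4 intact replicates. No like share over all tested probe sets was counted, so these counts are a description and carry no test.

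**Figure D1:**
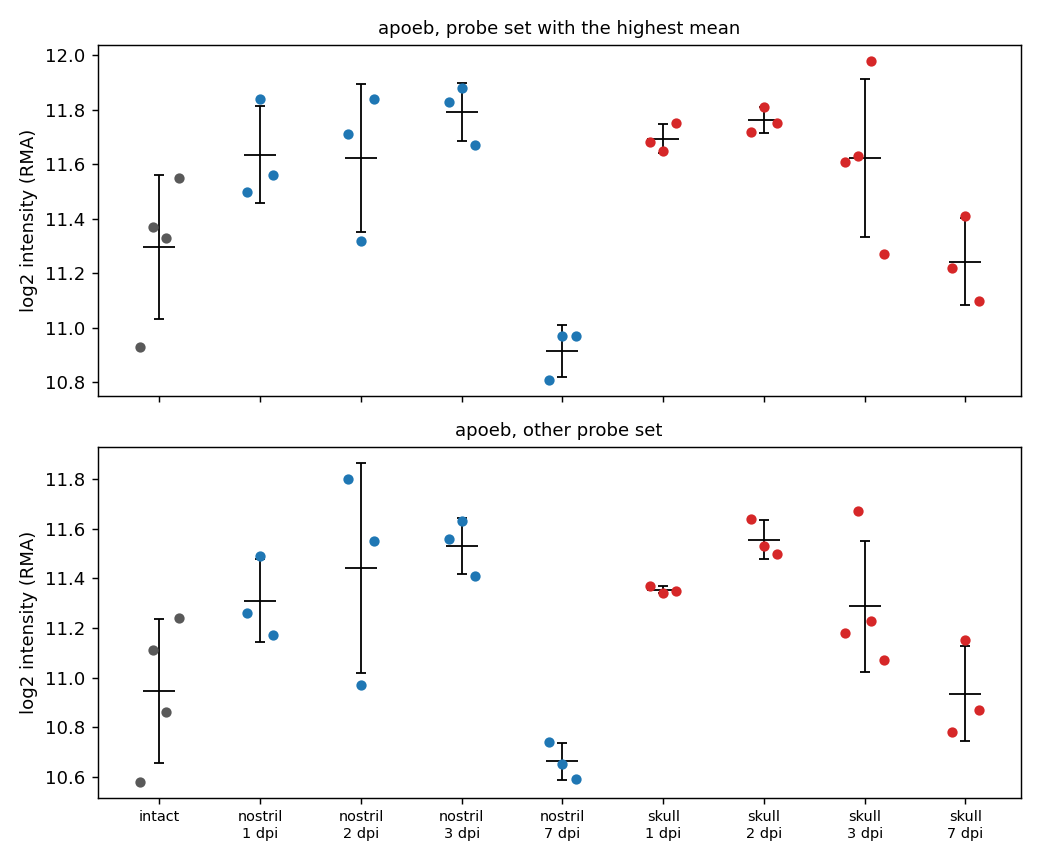
apoeb log2 intensity (y axis) in every replicate, for intact telencephalon and for nostril and skull injury by days post-injury (x axis), with the probe set of the higher mean in the upper panel and the other in the lower. Points are replicates and horizontal bars with error bars are the group mean ± SD, and in the upper panel the values of 1 to 3 dpi lie mostly above the intact range of 10.93 to 11.55, while all 3 nostril values at 7 dpi lie at or below 10.97.

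Ordered by group mean, apoeb was highest after nostril injury at 3 dpi (11.79 ± 0.11, SD, n = 3), followed by skull injury at 2 dpi (11.76 ± 0.047, n = 3) and 1 dpi (11.69 ± 0.053, n = 3). Nostril injury at 1 dpi (11.64 ± 0.18, n = 3) and 2 dpi (11.62 ± 0.27, n = 3) and skull injury at 3 dpi (11.62 ± 0.29, n = 4) came next, then intact telencephalon (11.29 ± 0.26, n = 4). The lowest means were those of skull injury at 7 dpi (11.24 ± 0.16, n = 3) and nostril injury at 7 dpi (10.92 ± 0.094, n = 3). Neighbours in this order overlapped in their values, with the exception of the last pair. On the linear scale the means ran from 1932 to 3547.

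The difference of each injured group from intact telencephalon did not pass the test over all probe sets for either gene. After nostril injury, 0 of the 2 tested genes were called at any of the 4 time points. limma called 0.836% of all tested probe sets at 1 dpi, 0.529% at 2 dpi, 0.0861% at 3 dpi and 1.75% at 7 dpi. At an unadjusted p below 0.05, apoeb was counted at all 4 nostril time points and apoa1a at none. That limit was passed in the same direction by 5.59%, 7.46% and 3.66% of all tested probe sets at 1, 2 and 3 dpi (higher) and 7.39% at 7 dpi (lower). The apoeb differences were 0.34 (SE 0.15, adjusted p = 0.44) at 1 dpi, 0.33 (adjusted p = 0.37) at 2 dpi and 0.50 (95% confidence interval 0.19 to 0.81, adjusted p = 0.35) at 3 dpi. At 7 dpi the difference was -0.38 (SE 0.15, adjusted p = 0.20). Leaving out single replicates gave 0.22 to 0.43 at 1 dpi and 0.21 to 0.48 at 2 dpi. The 3 dpi groups did not overlap, as was so in the higher direction for 4.07% of all tested probe sets.

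After skull injury, again 0 of the 2 tested genes were called at any time, with 0.612%, 0.302%, 7.93% and 0.708% of all tested probe sets called at 1, 2, 3 and 7 dpi. At an unadjusted p below 0.05 apoeb was counted at 1, 2 and 3 dpi, where 6.62%, 5.07% and 9.39% of tested probe sets were higher by that rule. Its differences from intact were 0.40 (SE 0.15, adjusted p = 0.32), 0.47 (SE 0.15, adjusted p = 0.31) and 0.33 (SE 0.14, adjusted p = 0.14). The 1 and 2 dpi groups lay wholly above the intact one, as was so for 8.06% and 6.63% of all tested probe sets. At 7 dpi apoeb differed from intact by -0.05 (adjusted p = 0.91). The 3 dpi value depended on 1 library, since without skull 3 dpi replicate 4 the difference was 0.44 with an adjusted p of 0.048. All 8 comparisons with intact telencephalon share the same 4 intact replicates, whose spread therefore enters each of them.

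The test was passed on the step from 3 to 7 dpi. apoeb fell by 0.88 on the log2 scale between 3 and 7 dpi after nostril injury (95% confidence interval -1.21 to -0.54), to 0.545 of its 3 dpi intensity, with limma's adjusted p of 0.0106. All 3 values at 7 dpi lay below all 3 at 3 dpi, which held in that direction for 11.5% of tested probe sets. limma called 0.75% of tested probe sets on this step, 0.438% as lower. The call was lost without nostril 3 dpi replicate 1 (adjusted p = 0.055) and without nostril 7 dpi replicate 1 (adjusted p = 0.070), with differences of -0.86 and -0.82. It was also lost when only the samples of the 2 groups were fitted (adjusted p = 0.074).

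After skull injury the same step was -0.38 (SE 0.15, adjusted p = 0.10), and limma called 11.5% of tested probe sets on it. Without skull 3 dpi replicate 4 it was -0.50 (adjusted p = 0.031). The skull step differed from the nostril step by 0.50 (95% confidence interval 0.041 to 0.96, adjusted p = 0.39), so the steps were not shown to differ between injuries. In that comparison of steps limma called 0 of 40670 probe sets, with 11.6% at an unadjusted p below 0.05. The earlier steps were small, with apoeb at -0.01 from 1 to 2 dpi and 0.17 from 2 to 3 dpi after nostril injury, and 0.07 and -0.14 after skull injury. limma called 0.509% and 0% of tested probe sets on these nostril steps (5.72% at an unadjusted p below 0.05 on the latter) and 0.0197% and 4.65% on the skull ones. Over the 6 steps, 1 of the 12 differences of the 2 tested genes was called.

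The study was built to compare the 2 ways of wounding. For the 2 tested genes, apoeb and apoa1a, no difference passed the threshold here. In the skull against nostril comparison 0 of 2 tested genes were called at each time point. limma called 0.0344% of tested probe sets at 1 dpi, 0% at 2 dpi, 3.59% at 3 dpi and 0% at 7 dpi, where 2.35% and 2.89% had an unadjusted p below 0.05 at 2 and 7 dpi. apoeb differed by 0.06 at 1 dpi (95% confidence interval -0.28 to 0.39), 0.14 at 2 dpi (-0.20 to 0.47) and -0.17 at 3 dpi (-0.48 to 0.14). At 7 dpi it was higher in all 3 skull replicates than in any nostril replicate, by 0.33 (95% confidence interval -0.0067 to 0.66, adjusted p = 1). Groups did not overlap in that direction for 4.73% of tested probe sets. Leaving out single replicates gave -0.29 to -0.05 for the 3 dpi difference.

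**Figure D2:**
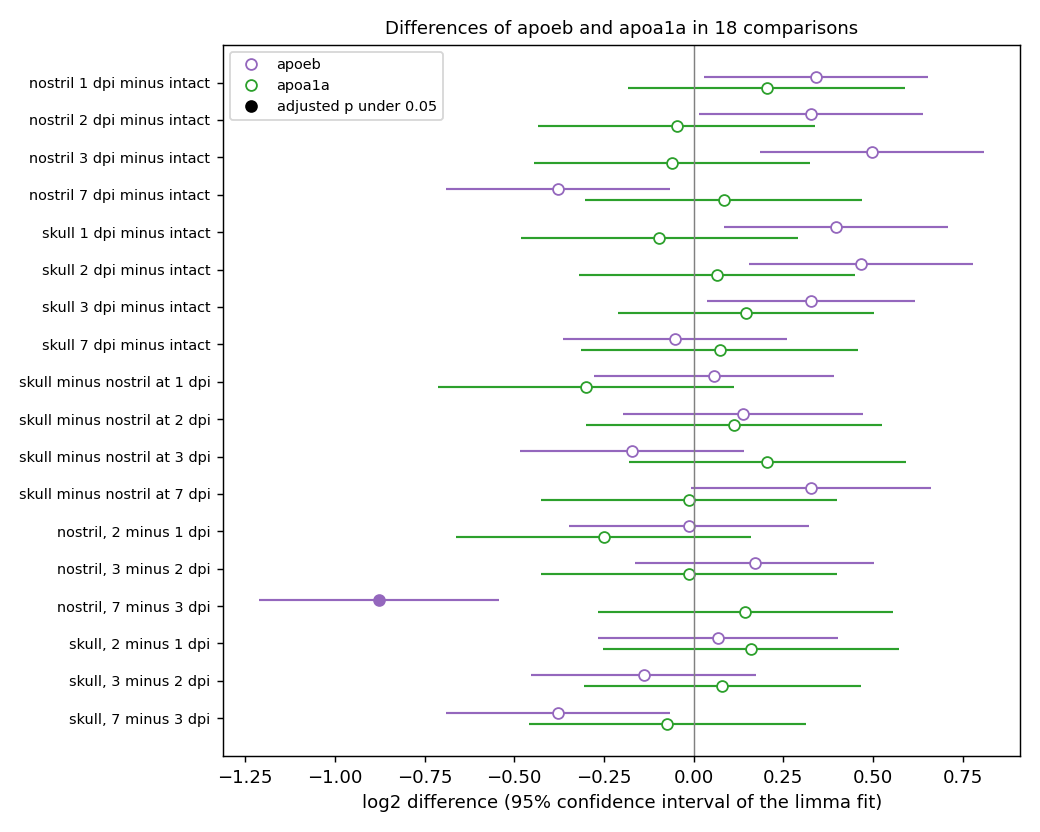
Log2 differences of apoeb and apoa1a (x axis) in the comparisons named on the y axis, with 95% confidence intervals from limma; filled symbols mark adjusted p below 0.05. The filled symbol is apoeb from 3 to 7 dpi after nostril injury, at -0.88, and the apoa1a intervals all include 0.

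The second apoeb probe set gave a like time course, with skull injury at 2 dpi as its highest group. It was measured at 10.58, 11.11, 10.86 and 11.24 in intact telencephalon, at 11.56, 11.63 and 11.41 after nostril injury at 3 dpi, and at 10.74, 10.65 and 10.59 at 7 dpi. All 19 injured replicates of 1 to 3 dpi lay above its intact mean, a count with no like share over all tested probe sets. Its step from 3 to 7 dpi after nostril injury was -0.87 (SE 0.18, adjusted p = 0.022). Across the 29 replicates the apoeb probe sets had a Pearson correlation of 0.892, and across the 9 group means 0.980. Both read the same RNA extracts, so this describes the probes and is no further replicate.

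apoa1a was measured close to the lower limit of the tested range. Its intact replicates were at 4.62, 4.68, 4.75 and 5.04. The nostril 1 dpi replicates held both the lowest and the highest value of the 29, at 4.31, 5.29 and 5.33, and the skull 1 dpi replicates were at 4.42, 4.76 and 4.84. Group means lay between 4.68 and 4.98, and every neighbouring pair in their order overlapped.

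Its 18 differences ran from -0.30 to 0.21, and 0 of 18 had an unadjusted p below 0.05. The largest in size was skull minus nostril injury at 1 dpi (95% confidence interval -0.71 to 0.11, adjusted p = 0.85). Without nostril 1 dpi replicate 1 that difference was -0.63, within the range of leaving out single replicates, whose adjusted p did not fall below 0.41. At this spread (residual SD 0.25) the intervals reached from -0.71 to 0.59. The second apoa1a probe set had group means of 4.18 to 4.67 and a Pearson correlation with the first of 0.198 over the 29 replicates and 0.560 over the 9 group means. It separated skull from nostril injury at 2 dpi without overlap, by 0.49 (SE 0.23, adjusted p = 1), as 3.12% of tested probe sets did, where the first probe set gave 0.11 with overlapping groups.

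apoea, the other apolipoprotein E gene, was measured at 3.53, 3.72, 3.61 and 3.66 in intact telencephalon and between 3.03 and 3.88 over all samples. Its group means ran from 3.41 after skull injury at 3 dpi to 3.70 after nostril injury at 3 dpi, and all groups overlapped with their neighbours. The highest group mean was 13.0 on the linear scale, under the minimum of 20, so apoea was not tested. A fall of so faint a signal may not have been detectable on these arrays. A rise past the minimum would have been tested, and none was seen, while a smaller rise would have stayed untested. Within the apolipoprotein E pair, the tests therefore cover apoeb alone.

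**Figure D3:**
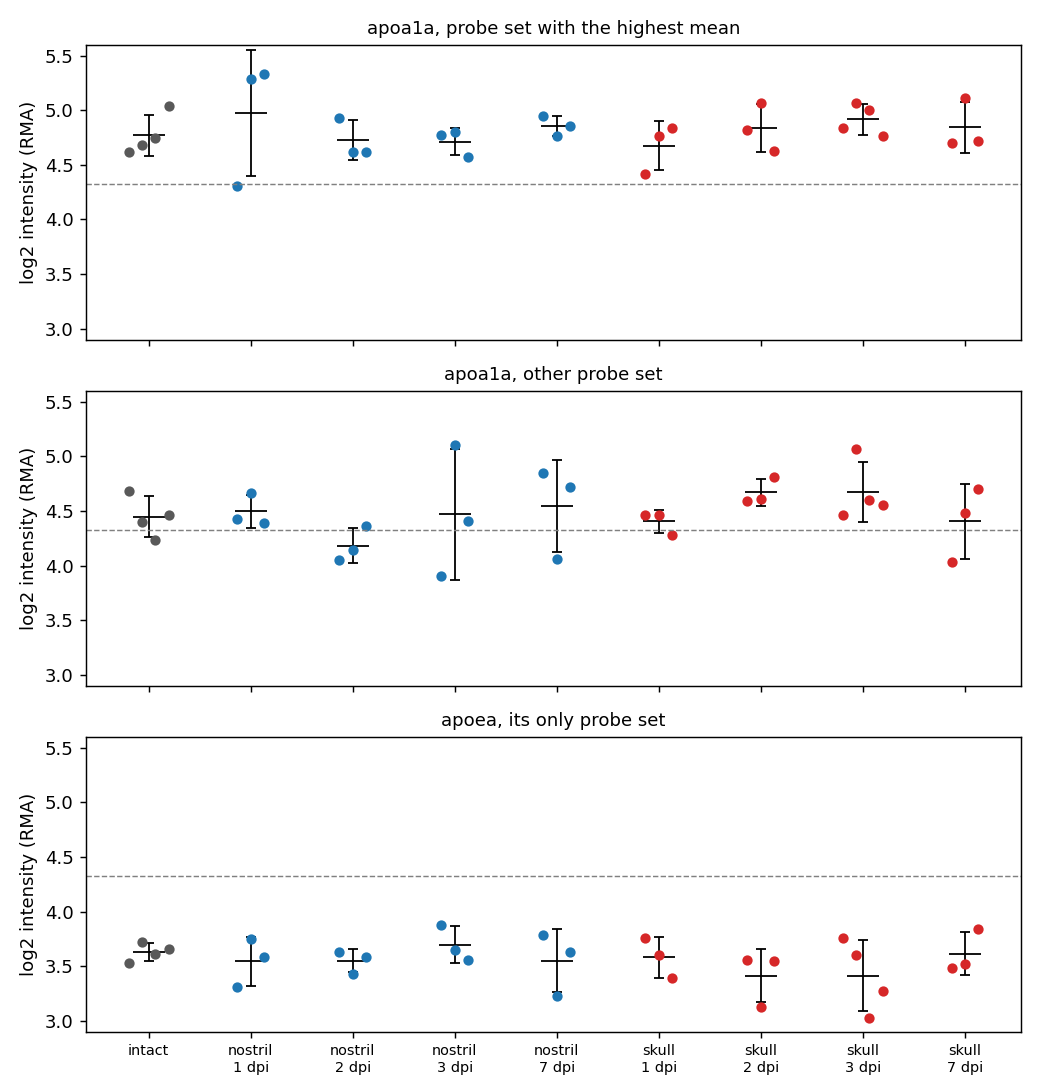
Log2 intensity (y axis) of apoa1a and apoea in every replicate by group (x axis), with group mean ± SD. The dashed line marks a linear intensity of 20, the minimum for testing, and apoea lies below it in every sample. The apoa1a values of all groups overlap for the probe set of the higher mean (top panel). The other apoa1a probe set (middle panel) separates skull from nostril injury at 2 dpi.

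In the gene order of the RefSeq annotation of assembly GRCz12tu, apoeb stands in a row of apolipoprotein genes with apoa4b.1, apoa4b.3 and apoa4b.2 on one side and apoc1, apoc4, apoa2 and apoc2 on the other. apoc1, beside it, has no value here. apoa4b.1, apoa4b.2, apoa4b.3, apoa2 and apoc2 stayed below the minimum for testing, with group means between 2.65 and 3.87. apoc4 was tested at group means of 4.07 to 4.56 and passed the threshold in 0 of 18 comparisons. apoea lies next to apoa4a, which was also too faint to test (3.23 to 3.52), and apoa1a lies between genes that are no apolipoproteins, pafah1b2 and rnf214.

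Of 22 further genes listed as apolipoproteins, 17 were matched and 7 tested (apoc4, apodb, apof, apol1, apoob, apool and clu). The list goes mostly by gene name. Whether each product, those of apoob and apool among them, is part of lipoprotein particles was not examined. apol1 passed the filter through nostril injury at 2 dpi (mean 4.46), and its intact mean was 3.85. limma called 0 of the 7 against intact telencephalon at any time after either injury (9 of 56 differences at an unadjusted p below 0.05). They include clu, which encodes clusterin, a major apolipoprotein of brain glia, at group means of 10.80 to 11.31. The gene of this set that differed between injuries by the widest margin was apof, whose human counterpart regulates cholesteryl ester transfer between lipoproteins. apof was measured at 7.96, 7.76 and 7.90 after nostril injury at 3 dpi and at 6.82, 6.91, 6.20 and 7.09 after skull injury at 3 dpi, with no overlap (8.68% of tested probe sets in that direction), and at 7.01, 7.38, 7.71 and 7.93 in intact telencephalon. It was lower after skull injury by 1.12 (difference -1.12, SE 0.26, adjusted p = 0.0225), on a comparison in which 2.66% of tested probe sets were called lower.

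The apof call was lost without nostril 3 dpi replicate 1, nostril 3 dpi replicate 3 or skull 3 dpi replicate 3 (adjusted p 0.063 to 0.10) and with only the 2 groups fitted (adjusted p = 0.25). From 3 to 7 dpi after skull injury apof rose by 0.82 (SE 0.26, adjusted p = 0.042), where limma called 8.32% of all tested probe sets higher. That call was lost without any 1 of skull 3 dpi replicates 1 and 3 and skull 7 dpi replicates 1, 2 and 3 (adjusted p up to 0.19). apodb, a zebrafish gene for the lipocalin apolipoprotein D, differed by 0.51 between injuries at 3 dpi (SE 0.15, adjusted p = 0.0497), a call that was lost on leaving out any of 26 of the 29 replicates (adjusted p up to 0.26). Skull injury at 3 dpi, which enters all 3 of these calls, is the group with the widest scatter.

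The receptors that take up lipoproteins gave no call where they were measured. The low-density lipoprotein receptor genes ldlra and ldlrb had no probe set carrying their symbol alone and were not measured. Of 23 listed receptor and adaptor genes, 16 were matched and tested, and limma called 0 in any of the 18 comparisons (24 of 288 differences at an unadjusted p below 0.05). After skull injury at 3 dpi 7 of the 16 were lower at an unadjusted p below 0.05, where this held for 16.2% of all tested probe sets. Their median difference there was -0.25, against -0.06 over all tested probe sets. Of 17 genes for lipid transfer to and from lipoproteins, among them the ATP-binding cassette transporters that load lipid onto apolipoproteins, 10 were tested and limma called 0 against intact or between injuries (20 of 80 and 3 of 40 differences at an unadjusted p below 0.05). abca7, one of these transporters, was lower by 0.52 from 2 to 3 dpi after skull injury (difference -0.52, SE 0.15, adjusted p = 0.0476), a call lost on leaving out any of 25 of the 29 replicates (adjusted p up to 0.19).

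Of 20 listed nuclear receptors and regulators of apolipoprotein E transcription, 15 were tested and limma called 0 against intact after nostril injury (7 of 60 differences at an unadjusted p below 0.05). After skull injury at 3 dpi 2 rose and 2 fell, where limma called 3.1% of all tested probe sets higher and 4.83% lower. pparg, a lipid-sensing nuclear receptor that promotes lipid storage and is known from mammalian macrophages, rose by 1.28 (SE 0.26, adjusted p = 0.0042), and did so on leaving out any single replicate (adjusted p up to 0.017). nr1h3 encodes liver X receptor alpha, the sterol sensor that drives apolipoprotein E transcription in mammals, and it fell by 0.48 (SE 0.13, adjusted p = 0.025). That call did not hold if skull 3 dpi replicate 1 or 4, or replicate 2 or 3 of the intact samples, was left out (adjusted p up to 0.071).

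cebpa, a myeloid transcription factor, was higher by 0.62 (adjusted p = 0.043), and rxrbb, a retinoid X receptor, differed by -0.44 (adjusted p = 0.041). Both calls were close to the threshold. That of cebpa was lost without intact replicates 1, 2 or 4, any skull 3 dpi replicate, skull 2 dpi replicates 1 or 2 or skull 7 dpi replicate 2 (adjusted p up to 0.13). That of rxrbb was lost if skull 3 dpi replicate 1, or replicate 2, 3 or 4 of the intact samples, was left out (adjusted p up to 0.14). From 3 to 7 dpi after skull injury nr1h3 rose by 0.47 (adjusted p = 0.030) and ppargc1a, a coactivator of these receptors, by 0.60 (adjusted p = 0.019). On that step limma called 8.32% of all tested probe sets higher. The fall of nr1h3 at 3 dpi and its rise afterwards share the skull 3 dpi replicates. Both rises were lost without skull 7 dpi replicate 1, 2 or 3, or skull 3 dpi replicate 1. That of nr1h3 was also lost without skull 3 dpi replicate 4, and that of ppargc1a without skull 3 dpi replicate 3. Over all of these the adjusted p was up to 0.12.

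Whole telencephalon holds many cell types, and in such bulk RNA fewer cells of a type and less RNA per cell cannot be told apart. Markers of microglia and macrophages, cells that express apolipoprotein E, moved in the same time window as apoeb. Of 29 listed markers 24 were matched and 22 tested, with ptprc and tyrobp too faint to test. Their summed linear intensity was 2724 to 3436 over the intact replicates. After nostril injury the replicates held 3220 to 4423 at 1 dpi, 3642 to 5993 at 2 dpi, 4153 to 5090 at 3 dpi and 2987 to 3329 at 7 dpi. After skull injury they held 3827 to 5015, 4566 to 5686, 5072 to 8405 and 3342 to 4339. The sums at 2 and 3 dpi lay above the intact range in both injuries, as did those at 1 dpi after skull injury. At 7 dpi the sums after nostril injury were back inside it. Bright probe sets weigh most in these sums and in those of the lists below. Among the 22 markers, cd74a and cd74b had intact means of 10.33 and 8.62, where the mean over all 22 was 5.99. The sums therefore do not describe all 22 evenly.

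**Figure D4:**
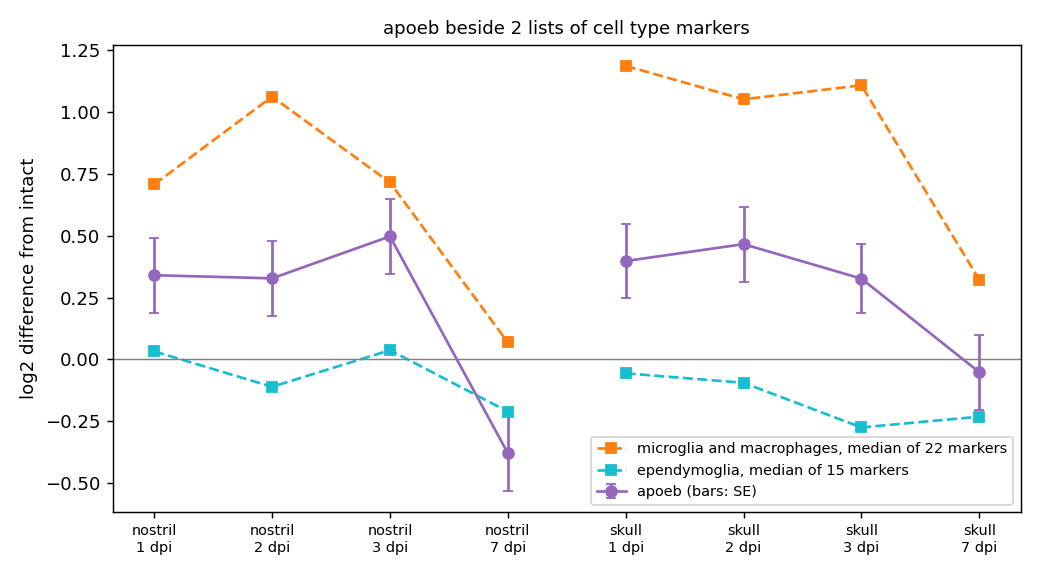
Difference from intact in log2 units (y axis) by days post-injury (x axis) for apoeb (limma estimate ± SE) and for the medians of the tested microglia and macrophage markers and ependymoglia markers, after nostril and skull injury. The microglia and macrophage median is near 0.07 at 7 dpi after nostril injury, where apoeb is at -0.38.

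After nostril injury 6 of the 22 microglia and macrophage markers rose at 1 dpi, 12 at 2 dpi, 1 at 3 dpi and 0 at 7 dpi, with median differences of 0.71, 1.06, 0.72 and 0.07. After skull injury 12, 10, 18 and 0 rose, with medians of 1.19, 1.05, 1.11 and 0.32. Over all tested probe sets limma called 0.765%, 0.457%, 0.0787% and 1.21% higher after nostril injury and 0.541%, 0.283%, 3.1% and 0.519% after skull injury. cd74a, the invariant chain of antigen presentation, fell at 1 dpi after either injury, by 0.71 and 0.73. The counts hung on single replicates, and leaving out 1 at a time gave 2 to 7, 1 to 13 and 0 to 2 rising markers at 1, 2 and 3 dpi after nostril injury and 7 to 13, 1 to 12 and 15 to 19 after skull injury. From 3 to 7 dpi laptm5, a lysosomal protein of blood-derived cells, and spi1a, a PU.1 transcription factor of myeloid cells, fell by 1.42 and 0.97 after nostril injury. No other of the 22 markers was called on this step, where 0.438% of all tested probe sets were called lower. The median of the 22 markers was -0.72. On the same step after skull injury, all called microglia and macrophage markers fell, where 3.19% of all tested probe sets were called lower. laptm5, spi1b, c1qa and mpeg1.1 were among them, with differences of -1.59, -1.11, -1.30 and -1.36. Leaving out single replicates gave 4 to 11 falling markers there, of the 22 tested. At 7 dpi after nostril injury apoeb stood at -0.38 against intact while the median of the 22 markers was 0.07. The part of microglia and macrophages in the apoeb values was not tested.

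Ependymoglia, the radial glia of the zebrafish brain, are another glial source to set beside apoeb. Of 19 listed markers 16 were matched and 15 tested. Their summed linear intensity was 17318 to 22652 in intact samples, 19495 to 20858 after nostril injury at 3 dpi and 14945 to 17596 at 7 dpi, then 12041 to 16296 after skull injury at 3 dpi and 16685 to 16885 at 7 dpi. At 1 dpi after nostril injury 1 of the 15 rose, gfap, the intermediate filament gene of glia, by 1.42 (adjusted p = 0.0048), a call lost without nostril 1 dpi replicate 2. At 7 dpi after nostril injury 2 of the 15 fell, id1 by 0.67 and s100b by 0.60, where 0.538% of all tested probe sets were called lower. The median there was -0.21, and leaving out single replicates gave counts of 0 to 5. At 3 dpi after skull injury, when apoeb stood at 0.33 above intact, 5 of the 15 fell, against 4.83% of all tested probe sets, and the median was -0.27 against -0.06 over all. At 7 dpi after skull injury, when apoeb was near its intact level (-0.05), the sums lay wholly below the intact range. The median there was -0.23, with 0 of 15 called, where limma called 0.708% of all tested probe sets. From 3 to 7 dpi after nostril injury id1 and s100b fell, with differences of -0.65 each (limma's adjusted p 0.037 and 0.033). There 0.438% of all tested probe sets were called lower. From 3 to 7 dpi after skull injury 3 of the 15 rose (cyp19a1b, gja1b and glula) and 1 fell (s100b). On that skull step 8.32% of all tested probe sets were called higher and 3.19% lower. The count of 3 went to 1 without skull 7 dpi replicate 3. The part of ependymoglia in the apoeb values was not tested either.

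The liver is the main source of plasma apolipoproteins. Of 20 listed plasma protein genes made by the liver, 18 were matched and 6 tested. Their summed intensity was 2695 to 3906 in intact samples and 1257 to 4091 after injury. The sums lay wholly below the intact range at 2 dpi after nostril injury (1753 to 2345). So did those at 2, 3 and 7 dpi after skull injury (2267 to 2460, 2166 to 2610 and 1959 to 2234). In the other injured groups they overlapped the intact range. Against intact, 20 of 48 differences, in either direction, had an unadjusted p below 0.05 with limma. That count is pooled over comparisons with no like share beside it, and carries no result. c3a.1, a complement C3 gene, rose by 0.91 at 1 dpi after nostril injury (adjusted p = 0.0092), which was lost without nostril 1 dpi replicate 2 or 3. fga, a fibrinogen chain gene, was higher by 0.87 after skull than after nostril injury at 3 dpi (adjusted p = 0.0495), which was lost on leaving out any of 24 of the 29 replicates. Both fell from 1 to 2 dpi after nostril injury (adjusted p 0.039 and 0.024). On the lower side of these calls, c3a.1 had means of 3.99 (intact) and 4.05 (nostril 2 dpi). Those of fga were 3.87 (nostril 3 dpi) and 3.61 (nostril 2 dpi). All of these lie under the minimum for testing, which both genes passed only through groups where they were higher. Red blood cell markers summed to 275 to 625 in intact samples and to 504 to 888 after skull injury at 1 dpi, where 3 of 10 (klf1, alas2 and gata1a) rose, against 0.541% of all tested probe sets. That count lay between 1 and 3 on leaving out single replicates and fell to 1 if skull 1 dpi replicate 1 or 2, or replicate 1 or 3 of the intact samples, was left out. klf1 and gata1a had intact means of 3.84 and 3.58, under the minimum for testing, and means of 4.76 and 4.54 after skull injury at 1 dpi. Genes so faint can enter the test through the group in which they rose, so the count is a description only. Endothelial and mural markers (14 tested) and skin and skull markers (11 tested) gave 0 calls in 18 comparisons with limma (25 of 252 and 17 of 198 differences at an unadjusted p below 0.05).

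By Pearson correlation over the 29 replicates, the log2 values most like those of apoeb among 14371 other tested genes were those of krt18b (Pearson r = 0.824, Spearman rho = 0.690), adap2 (0.788 and 0.766) and wasf2 (0.786 and 0.714). The order is by Pearson's r alone, and calr3a (r = 0.774) and psmb5 (r = 0.784), next by that measure, had higher Spearman values, of 0.809 and 0.784. The samples share their injury groups, so these values describe a common time course and carry no test. krt18b is a type I keratin gene, and its group means ran from 7.12 to 8.85. It stood 1.17, 1.11 and 1.14 above intact at 1, 2 and 3 dpi after nostril injury (adjusted p 0.011, 0.026 and 0.055) and 1.44, 1.13 and 1.31 above after skull injury (adjusted p 0.0016, 0.027 and 0.00097). From 3 to 7 dpi it fell by 1.43 after nostril injury (adjusted p = 0.0065) and by 1.27 after skull injury (adjusted p = 0.0024).

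Some of these krt18b calls rested on single replicates. The nostril 1 dpi call was lost without nostril 1 dpi replicate 3 (adjusted p = 0.090), and the nostril step from 3 to 7 dpi without nostril 7 dpi replicate 1 (adjusted p = 0.060). The 2 dpi calls were lost without intact replicate 1, 2 or 3, or without nostril 2 dpi replicate 1 or 3 or any skull 2 dpi replicate (adjusted p up to 0.22). adap2, which encodes a regulator of small GTPases, and wasf2, which encodes an activator of actin branching, had narrower ranges, of 4.48 to 5.39 and 6.29 to 7.44. wasf2 differed from intact by 0.87 at 1 dpi after skull injury, at an adjusted p of 0.04997 that leaving out any of 25 replicates lost (up to 0.21).

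The genes most like apoa1a were aldh1l1, an enzyme gene used as an astroglial marker in mammals (r = 0.632, rho = 0.641), tmem107l (0.628 and 0.634) and ccdc40 (0.624 and 0.541), the last of which is needed for motile cilia. Those most like apoea were tmpoa (0.656 and 0.575), il13ra2 (0.618 and 0.564) and zgc:85936 (0.614 and 0.657), though apoea was too faint for its order of samples to be read with confidence. All of these correlations were lower than the 0.824 of krt18b with apoeb.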

How the data were processed

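The authors deposited log2 intensities from Affymetrix Zebrafish Gene 1.0 ST arrays, made in Expression Console 1.3 by the RMA method (quantile normalization to a sketch, then median polish). The table holds 75212 probe sets on 30 arrays. Array scans were not analysed here. Arrays have no read depth, and precision is limited by 3 or 4 replicates per group.

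With limma 3.58.1 under R 4.3.3, linear models with moderated variances (no trend) were fitted to all probe sets and all 9 groups to give the contrasts, and figures were drawn with matplotlib 3.10.9. There were 20 residual and 3.51 prior degrees of freedom. Benjamini-Hochberg adjustment covered the probe sets with a linear group mean above 20. The 18 contrasts were 8 against intact, 4 of skull minus nostril and 6 steps in time. The comparison of the 3 to 7 dpi steps between injuries was added after the data were seen. The code was tested on simulated data.

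Of the probe sets, 20806 carry 1 symbol, 855 several and 53551 none listed, and 1 symbol was updated. The annotation is of an older build than GRCz12tu, so no positions are given. Named genes were mainly the members, up to 4 genes with the smallest p of each list among those called, and the 3 most correlated genes for each member. cd74a and cd74b were named in addition, for the fall of cd74a and their weight in the marker sums. In all 11 lists were counted, 1 of them of the oligodendrocyte lineage (10 tested), in which mbpa and olig1 gave 4 calls over the 18 contrasts. mbpa fell at 3 dpi after skull injury (difference -1.04), where 4.83% of all tested probe sets were called lower. It also fell from 2 to 3 dpi (-0.76, with 4.65% called) and rose from 3 to 7 dpi (0.67, with 8.32% called higher). olig1 rose from 1 to 2 dpi after nostril injury (0.72, with 0.509% called). The telencephalic genes emx3, tbr1b and neurod6a, the faint markers ptprc and tyrobp, and calr3a and psmb5, were named after their values were seen. The members and lists were chosen with earlier results of these data known. Alternatives were another normalization, filter, model or probe set, the replicate number as a block, and each replicate left out.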

Additional observations from a re-analysis of the deposited data

Results flagged for a closer look

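apof and apodb were picked out because their response differed between the injuries at 3 dpi, by -1.12 and 0.51 (skull minus nostril injury, limma's adjusted p 0.0225 and 0.0497), with the limits given above. At 1 dpi apof lay above its intact mean in all 3 nostril-injured replicates (8.06, 7.90 and 7.72) and below it in all 3 skull-injured ones (6.47, 7.27 and 7.37), a difference of -0.86 that did not pass the test (SE 0.28, adjusted p = 0.54).

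In groups of 4 replicates, the gap of the outermost sample to its nearest neighbour was compared with the whole range of the group, for 36 groups, of which chance picks out about 1 in 20. rxrbb was at 7.14, 7.63, 7.66 and 7.67 after skull injury at 3 dpi, where the gap of replicate 1 took 0.925 of the range. adap2 was at 4.57, 4.59, 4.53 and 5.06 in intact telencephalon and wasf2 at 6.47, 6.44, 6.41 and 6.99, where the gap of intact replicate 4 took 0.886 and 0.900 of the range. Intact replicate 4 also held the highest intact value of apoeb, 11.55. apoeb, apoa1a and apoea had no such sample.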

How the results depend on the processing

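Of 264 differences of apoeb and apoa1a under alternatives other than leaving out a replicate, 258 kept their direction and their side of the threshold. The count of calls after nostril injury against intact and that between the injuries stayed at 0 in every alternative run. After skull injury against intact the count went from 0 to 1 with a further quantile normalization (apoeb at 3 dpi, 0.48, adjusted p = 0.038), and lay between 0 and 1 on leaving out single replicates. For the steps in time it went from 1 to 0 when only the groups of each comparison were fitted (apoeb from 3 to 7 dpi after nostril injury, adjusted p = 0.074), and lay between 0 and 2 on leaving out single replicates. Over the alternatives other than leaving out a replicate the adjusted p of that apoeb step ran from 0.0018 to 0.074, and on leaving out single replicates from 0.0042 to 0.070, with differences of -0.94 to -0.82. Leaving out skull injury at 3 dpi as a group gave no value for the skull and step counts. Some small apoeb differences that were never called changed sign. Skull injury at 7 dpi against intact was 0.015 with a further quantile normalization and 0.00196 with arrays centred on their medians, and -0.17 to 0.034 on leaving out single replicates. The nostril step from 1 to 2 dpi was 0.027 with a further quantile normalization and 0.13 with the other probe set, and -0.12 to 0.14 on leaving out single replicates. Skull minus nostril injury was -0.0088 to 0.16 at 1 dpi and -0.014 to 0.25 at 2 dpi on leaving out single replicates. The scalings moved the median of all tested probe sets by at most 0.054. Same-numbered replicates of different groups had deviations that correlated between -0.144 and 0.206, against -0.184 to 0.237 for different numbers. These ranges show no pairing by number, though they cannot exclude one. With the replicate number as a block, the calls over all 18 contrasts went from 13753 to 13689, and the count for the steps in time stayed at 1 (adjusted p = 0.017), with the other 3 counts at 0. Single contrasts moved more. Calls went from 712 to 529 at 7 dpi after nostril injury against intact, and from 1462 to 1764 for skull minus nostril injury at 3 dpi. Signal over background limits apoea and apoa1a.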
